A study of Mus musculus with 18 samples.

Results

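The genes described here encode osmosensing and mechanosensing cation channels, the obligatory subunit of the volume-regulated anion channel, and the WNK kinase cascade that sets cell volume. They were chosen by name, as the rows for *Trpv4*, *Trpv2*, *Trpm4*, *Trpm7*, *Trpc1*, *Piezo1*, *Lrrc8a*, *Wnk1*, *Oxsr1* and *Stk39*, and all 10 were found among the 21899 genes of the deposited table. The choice followed a higher *Trpv4* level in epididymal white adipose tissue (eWAT) under high-salt diet, so the diet comparison of eWAT is given for these genes as a description, with no test. RNA of liver, eWAT and quadriceps muscle was measured in male wild-type C57BL/6 mice that were 18 weeks old. The HSD group ate a diet with 8% NaCl and drank 0.9% saline for 12 weeks, and the CON group was given chow and tap water. Each tissue had 3 CON and 3 HSD libraries, 18 in all. The tissues are mixtures of cell types, and fewer cells of a type and less RNA per cell cannot be told apart in them.

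Animal cells hold their volume by moving ions and osmolytes across the membrane when the salt outside or the tension of the membrane is altered. TRPV4 opens on cell swelling and warmth, and lets calcium enter. PIEZO1 opens on membrane stretch, TRPM7 is a magnesium and calcium channel fused to a kinase, and LRRC8A is needed in every volume-regulated anion channel, which releases chloride and organic osmolytes from swollen cells. WNK1 senses chloride and crowding in the cytoplasm and activates the kinases OXSR1 and STK39 (also named SPAK), which phosphorylate the cation-chloride cotransporters that load or unload salt. In fat cells, the LRRC8A channel is known to sense the swelling that goes with lipid filling, and TRPV4 to act on thermogenic and inflammatory genes.

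Expression was deposited as FPKM, the fragments of a gene divided by its length and by the total of the library, a scale on which levels of different genes can be compared per length. The libraries held 7628071 to 16637489 fragments, recovered from the FPKM as described in the processing section. The 12 hepatocyte markers summed to 13220 to 66690 FPKM in liver and the 10 skeletal muscle markers to 66900 to 84410 FPKM in muscle, the tissues they name, but several libraries also held RNA of other tissues. HSD replicate 2 of eWAT summed to 26950 FPKM over 14 markers of epididymal epithelium, against 1.05 to 15.0 in the other 5 eWAT libraries. In it *Gpx5*, the epididymal glutathione peroxidase, read 6610 FPKM, and *Adipoq*, the adipocyte hormone adiponectin, read 692 FPKM against 1937 to 2129 elsewhere in eWAT. The 11 male germ cell markers summed to 617 FPKM in HSD replicate 1 and 273 in HSD replicate 2 of eWAT, and to 0.744 to 50.4 in the other 4. CON replicate 2 of liver summed to 4881 FPKM over 10 skeletal muscle markers, with *Acta1* alone at 1994 FPKM, where the other liver libraries had at most 7.09 over the list. The 5 blood cell markers summed to 5537 FPKM in that library and to 5536 FPKM in CON replicate 1 of eWAT, against 235 to 722 FPKM in the other eWAT libraries. Mitochondrially encoded genes took 15.4% to 60.8% of the fragments in liver, 3.52% to 5.11% in eWAT and 11.3% to 16.5% in muscle. Results that turn on the eWAT library with epididymal RNA or the liver library with muscle RNA are given with and without it.

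In eWAT, *Trpv4* read 3.81, 3.63 and 3.27 FPKM in the CON group and 8.29, 8.56 and 5.53 FPKM in the HSD group (replicates 1, 2 and 3). The HSD mean of 7.46 ± 1.67 FPKM (SD, n = 3) was 2.09 times the CON mean of 3.57 ± 0.272 FPKM (SD, n = 3), and every HSD library lay above every CON library. The fitted difference was 0.95 (SE 0.18) on the log2(FPKM + 0.5) scale. These values rest on 222 to 249 fragments of *Trpv4* per CON library and 295 to 461 per HSD library. Without HSD replicate 2, the library with epididymal RNA, the ratio of means was 1.94 and the difference 0.84 (SE 0.17). *Trpv4* lies on chromosome 5 at 114622152 to 114658421 on the minus strand (mm10).

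*Trpv2*, which encodes a channel close to TRPV4 that is activated by stretch and heat, had values of 4.53, 3.94 and 4.50 FPKM in CON and 12.2, 5.78 and 8.15 FPKM in HSD eWAT. The groups did not overlap, the ratio of means was 2.01 and the difference 0.87 (SE 0.26) on the log2 scale. Here the library with epididymal RNA was the lowest of the HSD group, and without it the ratio was 2.35 and the difference 1.12 (SE 0.17). *Piezo1* read 11.0, 11.5 and 12.7 FPKM in CON and 22.5, 12.4 and 17.5 FPKM in HSD eWAT, so its groups overlapped through HSD replicate 2 alone. The difference was 0.52 (SE 0.22), and 0.74 (SE 0.12) without that replicate. *Trpm7* had the narrowest spread of the channels, with 9.93, 10.1 and 9.38 FPKM in CON and 13.3, 11.6 and 12.7 FPKM in HSD, groups that did not overlap. Its difference was smaller, 0.34 (SE 0.09), a ratio of means of 1.28.

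*Trpm4*, a calcium-activated channel for sodium and potassium, and *Stk39* showed a different pattern in which a library decided the value. *Trpm4* read 1.87, 1.49 and 1.96 FPKM in CON eWAT and 2.41, 5.38 and 1.93 FPKM in HSD eWAT, where the value of 5.38 belonged to the library with epididymal RNA. Its ratio of means was 1.83, and 1.23 without that library. *Stk39* read 8.14, 8.02 and 7.30 FPKM in CON and 7.56, 18.3 and 5.94 FPKM in HSD, again with the high value in HSD replicate 2. Without it the difference of *Stk39* turned from 0.25 (SE 0.40) to -0.21 (SE 0.12) on the log2 scale. The part of the epididymal RNA in the levels of *Trpm4* and *Stk39* was not tested.

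The groups of the remaining genes overlapped in eWAT. *Wnk1* was the steadiest of the 10, with 13.18, 13.02 and 12.96 FPKM in CON and 13.66, 13.06 and 12.79 FPKM in HSD and a difference of 0.01 (SE 0.08). *Oxsr1* read 18.0, 17.9 and 16.7 FPKM in CON and 20.3, 13.9 and 17.6 FPKM in HSD, with the CON values inside the HSD range. *Lrrc8a* (2.87, 3.23 and 3.36 FPKM in CON, 3.74, 2.06 and 3.28 FPKM in HSD) and *Trpc1*, a subunit of stretch-related and store-related cation channels (1.21, 1.06 and 1.17 FPKM in CON, 1.57, 0.678 and 1.29 FPKM in HSD), also overlapped. Both had their lowest value in HSD replicate 2, and without it the difference of *Lrrc8a* went from -0.08 (SE 0.21) to 0.14 (SE 0.11) and that of *Trpc1* from -0.01 (SE 0.26) to 0.23 (SE 0.17).

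**Figure D1:**
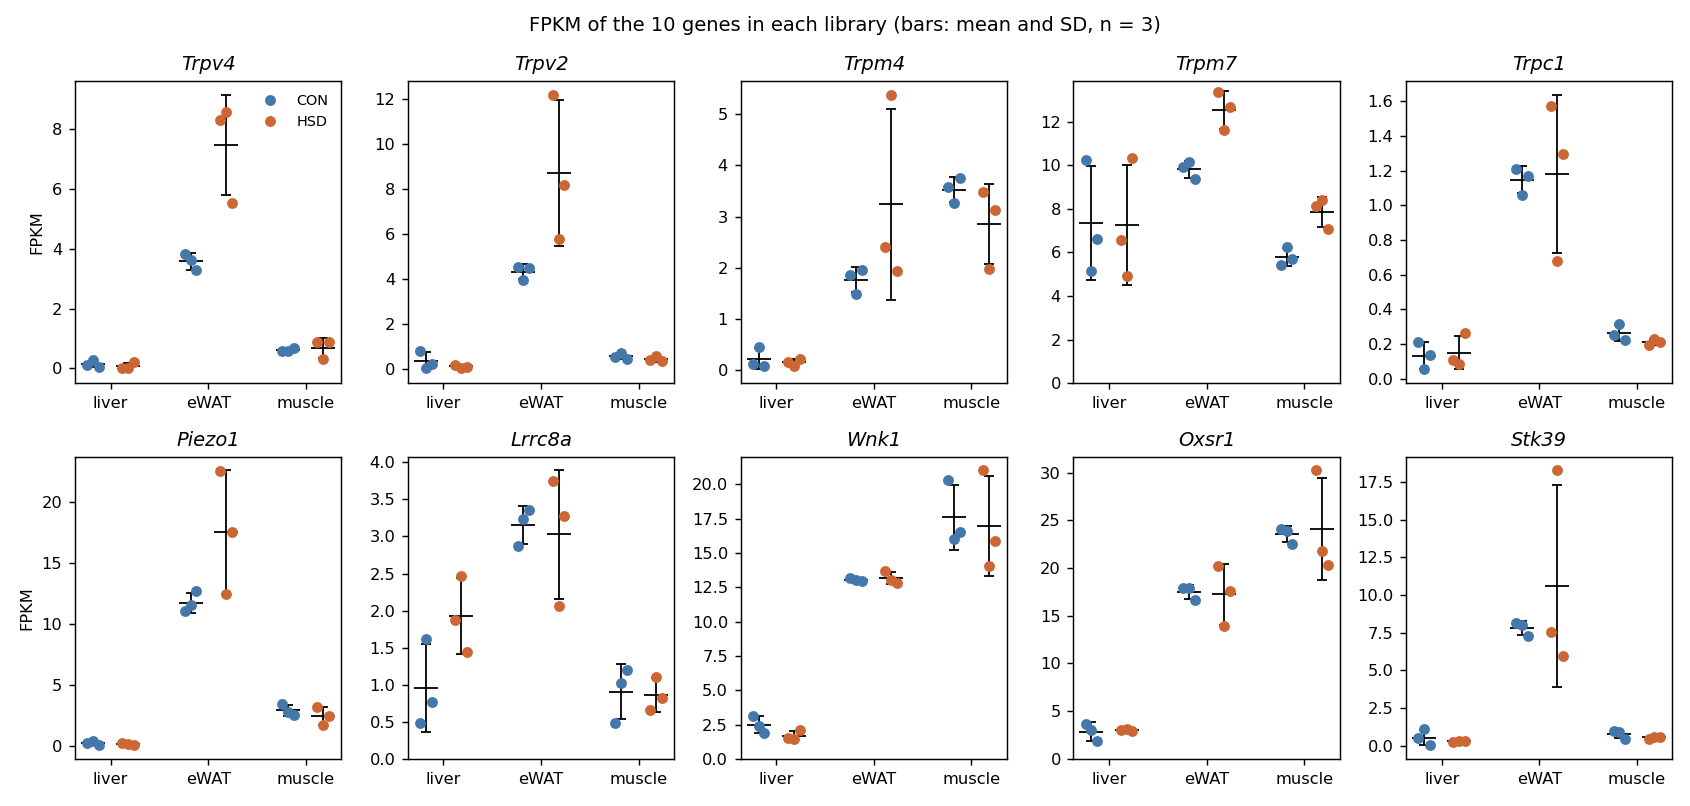
FPKM of each of the 10 genes (vertical axes) in liver, eWAT and muscle (horizontal axes), with a point for each CON (blue) and HSD (orange) library and black bars for the mean and SD of 3 libraries. *Trpv4*, *Trpv2* and *Trpm7* are the genes whose HSD points in eWAT all lie above the CON points, and the highest HSD point of *Trpm4* and *Stk39* in eWAT is replicate 2.

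Across all 13740 genes tested in eWAT, none was a DEG, defined as an adjusted p under 0.05 in limma with an absolute log2 difference of at least 1 (0% called), while 2298 genes had an unadjusted p under 0.05. The HSD group lay above the CON group with no overlap for 16.2% of all genes and below it for 12.4%. Of the 10 genes described here, 3 lay above with no overlap and 0 below. Since *Trpv4* was chosen for this contrast, these counts, and the ranks and median that follow, are a description and are not read further. Ranked by size among all absolute log2 differences in eWAT, *Trpv4* stood at percentile 90.5, *Trpv2* at 89.3, *Piezo1* at 77.3 and *Trpm7* at 62.2. The median difference of the 10 genes was 0.30, beside 0.08 for all genes. At the other end, *Wnk1* stood at percentile 2.48.

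The cell type lists of eWAT are set beside these values. Over the 10 endothelial markers, the sum was 490 to 560 FPKM in CON and 218 to 670 FPKM in HSD, and 0 of the 10 separated the groups. Of 13 macrophage markers, 5 were lower in HSD with no overlap and 0 higher, with sums of 623 to 922 FPKM in CON and 280 to 604 FPKM in HSD. Of 10 skeletal muscle markers, 7 were higher with no overlap, with sums of 9.57 to 19.6 FPKM in CON and 32.6 to 46.2 FPKM in HSD. The fibroblast and adipose progenitor list had 3 of 8 lower (sums of 449 to 591 FPKM against 216 to 439 FPKM), and the adipocyte list had 3 of 10 lower (17610 to 18900 FPKM against 7537 to 24330 FPKM). Of 12 hepatocyte markers, 11 were lower with no overlap, while their sum, at 1094 to 1597 FPKM in CON and 671 to 2576 FPKM in HSD, overlapped. The germ cell list had 2 of 11 higher and the epididymal list 2 of 14 higher, and in the CON libraries 1 to 7 of the 11 and 6 to 12 of the 14 markers were at 0. *Trpv4* read 8.29 FPKM in HSD replicate 1, with 15.0 FPKM of epididymal and 617 FPKM of germ cell markers, and 8.56 FPKM in HSD replicate 2, with 26950 and 273 FPKM. In HSD replicate 3, whose sums were 10.1 FPKM of epididymal and 38.0 FPKM of germ cell markers, *Trpv4* read 5.53 FPKM, above every CON library. The part of the other cell types in the levels of the channels was not tested.

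**Figure D2:**
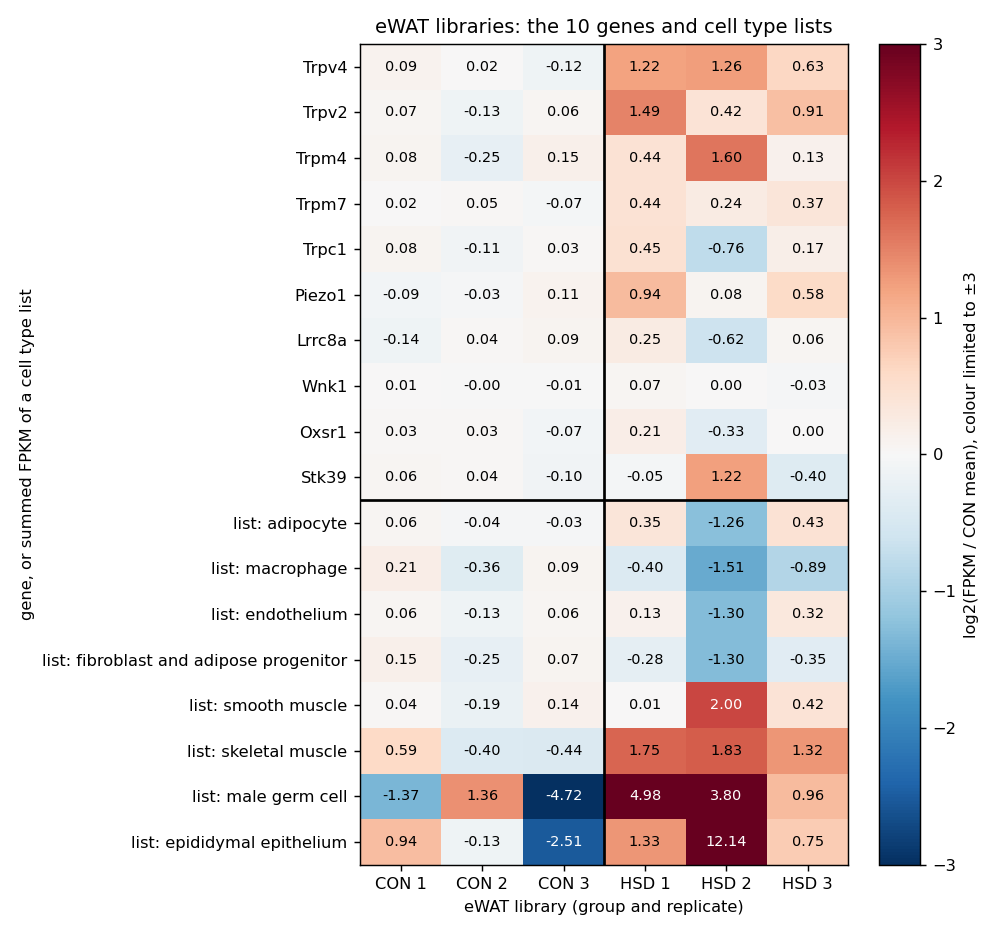
Heat map of the 6 eWAT libraries (columns, by group and replicate), with the 10 genes and the summed FPKM of 8 cell type lists in rows. Each cell gives log2 of the value over the CON mean, and colours stop at 3 in either direction. *Trpv4* stands at 1.22, 1.26 and 0.63 in HSD replicates 1, 2 and 3, while the epididymal list stands at 12.14 in replicate 2 and at 1.33 and 0.75 in replicates 1 and 3.

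The promoter windows of *Trpv4*, *Trpv2*, *Piezo1* and *Trpm7* are shown. With and without the library with epididymal RNA, these 4 channel genes had HSD means in eWAT of at least 1.28 times CON. That cut is the ratio of *Trpm7* itself, read from the contrast that the choice used. The windows hold the 250 bases upstream of the start, 5' to 3' on the strand of the gene. They come from RefSeq on GRCm38.p6, the assembly that mm10 is built on. Of the 10 genes, 9 had a window in that table. The regions are chr5:114658422-114658671 for *Trpv4* (minus strand), chr11:62574236-62574485 for *Trpv2* (plus strand, the one at the annotated gene start of 3 windows), chr8:122551330-122551579 for *Piezo1* (minus strand) and chr2:126876262-126876511 for *Trpm7* (minus strand). Capitals mark any match, on either strand, to the core TGGAAA of the tonicity-responsive enhancer, which is bound by the osmotic stress factor NFAT5, to the Sp1-type box GGGCGG, or to the box TATAAA that binds the basal machinery. No 2 matches overlap.
Trpv4: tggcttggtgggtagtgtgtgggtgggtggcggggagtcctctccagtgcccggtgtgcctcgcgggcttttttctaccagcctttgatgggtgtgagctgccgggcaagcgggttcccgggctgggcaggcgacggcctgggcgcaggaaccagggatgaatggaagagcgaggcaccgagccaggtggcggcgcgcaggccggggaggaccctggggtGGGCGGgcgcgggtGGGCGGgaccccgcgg
Trpv2: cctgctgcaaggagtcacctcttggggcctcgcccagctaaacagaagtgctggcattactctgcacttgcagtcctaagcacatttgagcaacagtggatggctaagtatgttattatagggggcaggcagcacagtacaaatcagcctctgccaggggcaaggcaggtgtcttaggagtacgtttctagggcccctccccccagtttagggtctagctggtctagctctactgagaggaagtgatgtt
Piezo1: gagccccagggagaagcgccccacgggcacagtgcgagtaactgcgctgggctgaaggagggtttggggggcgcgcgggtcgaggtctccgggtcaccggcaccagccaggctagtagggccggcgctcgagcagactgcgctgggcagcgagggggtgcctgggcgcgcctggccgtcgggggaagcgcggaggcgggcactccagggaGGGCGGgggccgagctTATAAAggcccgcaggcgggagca
Trpm7: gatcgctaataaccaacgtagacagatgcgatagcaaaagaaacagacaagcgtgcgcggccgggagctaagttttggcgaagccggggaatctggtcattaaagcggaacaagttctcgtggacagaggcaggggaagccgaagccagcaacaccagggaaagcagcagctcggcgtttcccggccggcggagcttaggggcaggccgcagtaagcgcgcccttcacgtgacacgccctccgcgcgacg

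TGGAAA was found in none of the 4 windows, and 18.6% of the 32851 windows of this length in the table held it. GGGCGG occurred at 2 places in the *Trpv4* window and 1 place in the *Piezo1* window, where 32.7% of all windows held it. TATAAA occurred at 1 place, in the *Piezo1* window, and in 12.4% of all windows. The windows of *Trpv4* and *Piezo1* had a GC content of 72% and 74%, *Trpm7* 60.4% and *Trpv2* 53.2%, beside a median of 52.4% over all windows. These matches describe letters in a short window and leave the rest of each locus unread.

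The diet comparisons of muscle and liver were not the contrast named in the choice and were tested. In muscle, 35 of 10834 genes were DEGs by limma (0.323%), and 54 with the replicate number as a block. The block is given because same-numbered CON and HSD libraries of muscle deviated together in these data. No label says that libraries with the same number were paired across the diets. Since the block was singled out by the same values it is fitted to, its counts and p-values, here and below, are not further support. Of the 9 genes of interest that passed the filter on low values (a mean of at least 0.5 FPKM), 0 were called in either fit. *Trpm7* was the member that came closest. Its muscle values were 5.44, 6.23 and 5.70 FPKM in CON and 8.13, 8.39 and 7.10 FPKM in HSD, so that every HSD library was above every CON library, as was the case for 6.72% of all genes. The HSD mean of 7.87 ± 0.683 FPKM (SD, n = 3) was 1.36 times the CON mean of 5.79 ± 0.405 FPKM (SD, n = 3). The log2 difference was 0.41 (SE 0.12) with an adjusted p of 0.139 in limma, and 0.0871 with the block, so it did not pass the threshold. Beside it, 7 of 13 macrophage markers were lower in HSD muscle with no overlap (sums of 60.3 to 97.0 FPKM in CON and 44.7 to 49.1 FPKM in HSD), as were 4 of 8 fibroblast markers and 15.6% of all genes. The sums of the skeletal muscle list also separated, at 66900 to 74630 FPKM in CON and 75810 to 84410 FPKM in HSD. The part of these cell types in the muscle values was not tested.

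*Trpv4* did not separate the diets in muscle, with 0.593, 0.580 and 0.680 FPKM in CON and 0.885, 0.302 and 0.890 FPKM in HSD. Its difference was 0.05 (SE 0.22), with a limma adjusted p of 0.936. These levels rest on 16 to 48 fragments per library. *Trpv2* read 0.555, 0.697 and 0.459 FPKM in CON muscle and 0.385, 0.584 and 0.377 FPKM in HSD muscle, a difference of -0.17 (SE 0.17), opposite in sign to that in eWAT. *Piezo1* also had a negative difference, -0.24 (SE 0.19), with 3.43, 2.78 and 2.57 FPKM in CON and 3.17, 1.72 and 2.46 FPKM in HSD. *Trpm4*, at 3.57, 3.27 and 3.75 FPKM in CON and 3.48, 1.98 and 3.12 FPKM in HSD, had a difference of -0.29 (SE 0.18). The limma adjusted p was 0.637 for *Trpv2*, 0.561 for *Piezo1* and 0.448 for *Trpm4*, and whether their diet effects differed between muscle and eWAT was not tested.

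*Oxsr1* and *Wnk1* were the most abundant of the 10 genes in muscle. *Oxsr1* read 24.1, 23.9 and 22.6 FPKM in CON and 30.3, 21.8 and 20.3 FPKM in HSD, a difference of 0.01 (SE 0.15). *Wnk1* read 20.32, 15.98 and 16.52 FPKM in CON and 21.02, 14.03 and 15.88 FPKM in HSD, a difference of -0.06 (SE 0.16). Both kinases had their highest muscle value in replicate 1 of the HSD group. *Stk39* was low, at 1.00, 0.886 and 0.469 FPKM in CON and 0.455, 0.606 and 0.602 FPKM in HSD (difference -0.27, SE 0.19), and *Lrrc8a* had a difference of -0.02 (SE 0.22). The limma adjusted p ranged from 0.518 to 0.980 for these 4 genes. *Trpc1*, at 0.197 to 0.315 FPKM in all 6 muscle libraries, was under the filter.

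**Figure D3:**
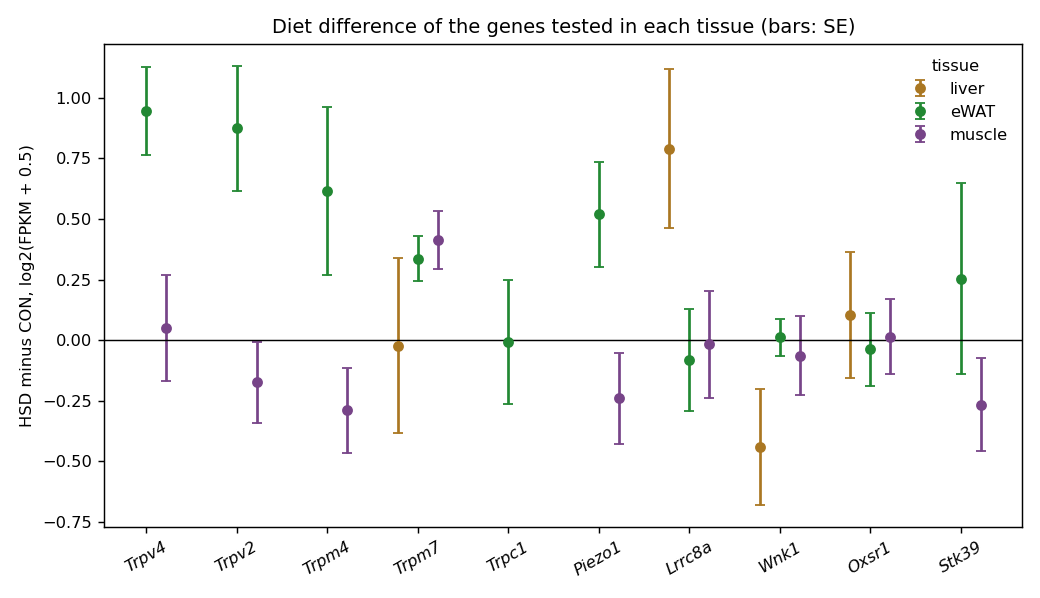
Difference between HSD and CON on the log2(FPKM + 0.5) scale (vertical axis) for each gene (horizontal axis) that passed the filter in liver, eWAT or muscle (colours), with bars for the SE. *Trpv4* stands at 0.95 in eWAT and 0.05 in muscle, and *Trpm7* at 0.34 and 0.41.

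In liver, 0 of 10317 genes were DEGs by limma (0%), with 592 at an unadjusted p under 0.05, and the HSD group lay above CON with no overlap for 8.62% of genes. Mitochondrially encoded genes took 60.8%, 25.7% and 37.8% of the fragments in CON liver and 16.3%, 15.4% and 44.4% in HSD liver (replicates 1, 2 and 3). The part of this uneven share in the liver values below was not tested. Of the 10 genes, 4 passed the filter and 0 of these separated the groups. *Lrrc8a* had the largest difference. It read 0.487, 1.62 and 0.761 FPKM in CON liver and 1.87, 2.46 and 1.44 FPKM in HSD liver, where the CON value of 1.62 came from the library with muscle RNA and overlapped the HSD range. Its log2 difference was 0.79 (SE 0.33), with a limma adjusted p of 0.764, and without that library 1.10 (SE 0.29) with an adjusted p of 0.506. Exons of *Lrrc8a* are shared on the same strand with the gene model *Gm28035* over 66.2% of their length, and *Gm28035* is listed at 0 in all 18 libraries. How fragments in shared exons were assigned is not given in the sources used here. The 0 therefore does not show that *Lrrc8a* kept all of its fragments, in liver or in the other tissues.

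*Wnk1* lay on the opposite side in liver, with 3.13, 2.42 and 1.92 FPKM in CON and 1.52, 1.45 and 2.11 FPKM in HSD. The difference was -0.44 (SE 0.24) with a limma adjusted p of 0.764. *Oxsr1* read 3.70, 3.07 and 1.84 FPKM in CON and 3.07, 3.12 and 2.89 FPKM in HSD, a difference of 0.11 (SE 0.26). *Trpm7* was the most abundant of the 10 genes in liver, at 10.2, 5.16 and 6.62 FPKM in CON and 6.55, 4.91 and 10.3 FPKM in HSD, a difference of -0.02 (SE 0.36). The limma adjusted p was 0.909 for *Oxsr1* and 0.986 for *Trpm7*.

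The other 6 genes were near the limit of detection in liver. *Trpv4* was counted with 4, 13 and 2 fragments in the CON and 0, 1 and 7 fragments in the HSD libraries. The count of 0, in HSD replicate 1, allows up to 3 fragments or 0.0706 FPKM in that library, from counting error only. *Trpv2* had 3 to 27 fragments per liver library, *Trpc1* 5 to 18, *Piezo1* 7 to 53, *Trpm4* 8 to 58 and *Stk39* 3 to 62. The highest counts of *Trpm4*, *Piezo1*, *Stk39* and *Trpv4* in liver all came from CON replicate 2, the library with muscle RNA. Besides the blood cell list, that library was also highest in liver for endothelial markers (38.6 FPKM, at most 18.4 elsewhere). Its smooth muscle markers summed to 128 FPKM, against at most 18.6 in the other liver libraries. The part of each cell type in these counts was not tested. Whether diet altered these 6 genes in liver was not detectable at this depth. In the model of muscle and liver together, 3 of 11381 genes (0.0264%) had a diet effect that differed between these tissues at an adjusted p under 0.05, and *Trpm7* (0.43, SE 0.39, limma adjusted p of 0.797) was not among them.

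The levels of the 10 genes across the tissues of CON mice are given next with their tests. The choice did not rest on a comparison of tissues. The CON libraries of eWAT were, however, part of the *Trpv4* diet contrast that it followed. In eWAT, *Trpv4* stood at 3.57 ± 0.272 FPKM, in muscle at 0.618 ± 0.0545 FPKM and in liver at 0.152 ± 0.112 FPKM (SD, n = 3 each). The eWAT mean was 5.78 times that of muscle and 23.5 times that of liver, or 39.2 times that of liver without the liver library that held muscle RNA. In limma over the 9 CON libraries, the log2 difference of *Trpv4* was 1.86 (SE 0.15, adjusted p of 4.95e-06) from muscle and 2.65 (SE 0.15, adjusted p of 3.47e-07) from liver. Muscle was above liver by 0.79 (SE 0.15, adjusted p of 0.001), so the order eWAT, muscle, liver held beyond the spread at each step. The choice of scaling sets part of such differences, and *Trpv4* kept this order and passed the adjusted p threshold at each step with median-ratio scaling (1.04 over muscle and 1.72 over liver) and with quantile normalization (0.81 and 1.35).

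*Piezo1* had the widest range between tissues. Its CON means were 11.7 ± 0.836 FPKM in eWAT, 2.93 ± 0.449 FPKM in muscle and 0.278 ± 0.180 FPKM in liver (SD, n = 3 each), 42.1-fold from liver to eWAT and 62.4-fold without the liver library that held muscle RNA. The 3 steps differed in limma with adjusted p of 1.4e-07 for eWAT over liver, 1.97e-05 for eWAT over muscle and 8.43e-06 for muscle over liver. Exons of *Piezo1* overlap those of *Ctu2* on the other strand over 24.6% of their length. The libraries were stranded, but whether fragments were assigned by strand is not given in the sources used here. *Ctu2* read 1.42 to 2.85 FPKM in liver, above every liver value of *Piezo1*, and 2.33 to 3.42 FPKM in eWAT.

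*Trpv2* and *Stk39* were also highest in fat. *Trpv2* had CON means of 4.33 ± 0.332 FPKM in eWAT, 0.570 ± 0.120 FPKM in muscle and 0.364 ± 0.380 FPKM in liver. *Stk39* had 7.82 ± 0.453 FPKM in eWAT, 0.787 ± 0.281 FPKM in muscle and 0.540 ± 0.508 FPKM in liver (SD, n = 3 each). The eWAT levels were higher than muscle with limma adjusted p of 7.13e-05 for *Trpv2* and 6.6e-05 for *Stk39*. The order of muscle and liver was within the spread for both (adjusted p of 0.214 and 0.294). Without the liver library that held muscle RNA, *Stk39* was lower in liver than in muscle by 0.77 on the log2 scale, with a limma adjusted p of 0.0242.

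*Oxsr1* and *Wnk1* had the reverse order of muscle and fat. *Oxsr1* stood at 23.5 ± 0.842 FPKM in muscle, 17.5 ± 0.724 FPKM in eWAT and 2.87 ± 0.947 FPKM in liver. *Wnk1* stood at 17.6 ± 2.36 FPKM in muscle, 13.1 ± 0.116 FPKM in eWAT and 2.49 ± 0.608 FPKM in liver (SD, n = 3 each). Liver was below muscle by 2.88 (SE 0.21) and 2.61 (SE 0.18) on the log2 scale, with limma adjusted p of 3.34e-06 and 2.24e-06. Muscle and eWAT did not pass the threshold as deposited, with adjusted p of 0.1 for *Oxsr1* and 0.0605 for *Wnk1*. With median-ratio scaling, eWAT was lower than muscle by 1.40 and 1.38, with limma adjusted p of 0.000521 and 0.000316. For *Wnk1*, the adjusted p was also 0.0479 without the liver library that held muscle RNA.

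*Trpm4* was a muscle-rich channel. Its CON means were 3.53 ± 0.243 FPKM in muscle, 1.77 ± 0.250 FPKM in eWAT and 0.225 ± 0.206 FPKM in liver (SD, n = 3 each), and all 3 steps passed the adjusted p threshold in limma (0.0036 for eWAT below muscle). With quantile normalization, eWAT over liver had a limma adjusted p of 0.0883 for *Trpm4*. In HSD mice, where the eWAT library with epididymal RNA read 5.38 FPKM, the *Trpm4* difference of eWAT from muscle was 0.07. *Lrrc8a* stood at 3.15 ± 0.257 FPKM in eWAT and at 0.904 ± 0.370 and 0.955 ± 0.589 FPKM in muscle and liver, which did not differ beyond their spread (limma adjusted p of 0.971). The higher *Lrrc8a* level of eWAT had an adjusted p of 0.00142 against liver and 0.00171 against muscle, which became 0.659 and 0.106 with median-ratio scaling. *Trpc1* was the lowest of the 10 in eWAT and muscle, with 1.15 ± 0.0780 FPKM in eWAT, 0.264 ± 0.0472 FPKM in muscle and 0.134 ± 0.0794 FPKM in liver. It passed the filter only through eWAT. With quantile normalization, the higher *Trpc1* level of eWAT missed the threshold (limma adjusted p of 0.576 against liver and 0.821 against muscle). *Trpm7* had the narrowest ratio of eWAT to liver, 1.34, with 9.81 ± 0.391 FPKM in eWAT, 7.34 ± 2.61 FPKM in liver and 5.79 ± 0.405 FPKM in muscle. Its direction depended on the scaling, since eWAT against liver was 0.45 (limma adjusted p of 0.0823) as deposited and -1.12 (0.00487) with median-ratio scaling. Liver against muscle had an adjusted p of 0.292, and 0.0346 without the liver library that held muscle RNA.

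**Figure D4:**
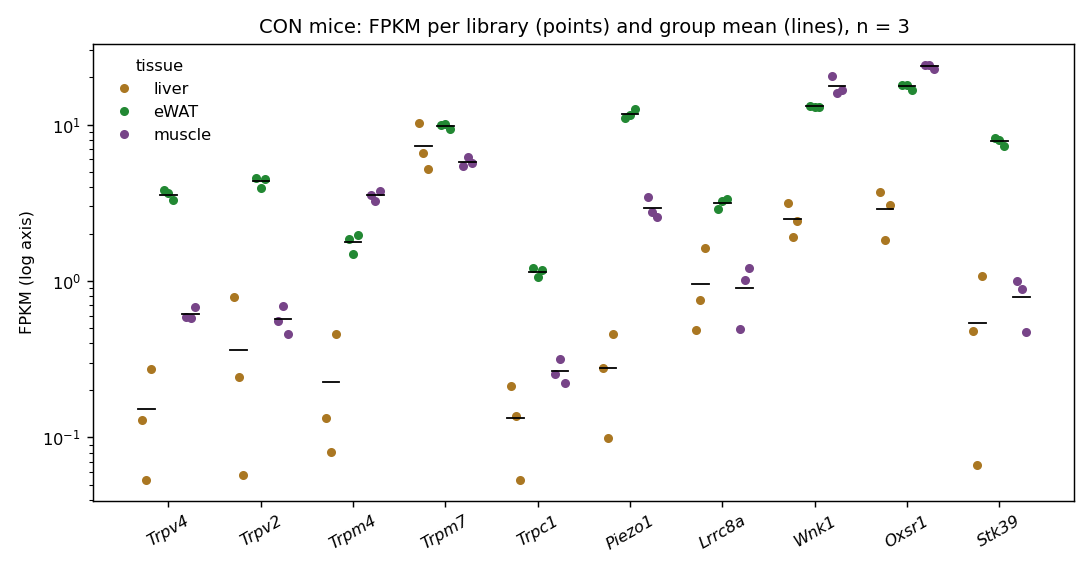
FPKM of the 10 genes in CON mice on a log axis, with a point for each library of liver, eWAT and muscle (colours) and a black line at the mean of 3 libraries. The eWAT points of *Trpv4*, *Trpv2*, *Piezo1*, *Trpc1*, *Lrrc8a* and *Stk39* lie above all others of their gene, and those of *Trpm4*, *Wnk1* and *Oxsr1* lie below muscle.

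Counted over the list, 9 of 10 genes were called higher in eWAT than in liver, and 0 lower, where of all genes 69.4% were called, 62.1% higher and 7.26% lower. In eWAT over muscle, 6 of 10 were called (*Trpv4*, *Trpv2*, *Trpc1*, *Piezo1*, *Lrrc8a* and *Stk39*) and 0 lower, beside 54.9% of all genes called, 46.9% higher and 7.98% lower. *Trpc1* is in both counts, with CON means of 0.264 FPKM in muscle and 0.134 FPKM in liver. It passed the filter only through eWAT, where it was high, so its calls are not read further. In liver below muscle, 4 of 10 were called (*Trpm4*, *Piezo1*, *Wnk1* and *Oxsr1*) and 0 higher, beside 50.1% of all genes called, 35.1% lower and 15% higher. The FPKM scale is shifted between tissues, with a median over all genes of 1.36 for eWAT over liver, 0.93 for eWAT over muscle and -0.52 for liver over muscle. The corresponding medians of the 10 genes were 2.33, 1.26 and -0.60. With median-ratio scaling, the median of all genes was 0.02 for eWAT over liver and 0.11 for eWAT over muscle, and 4 genes (*Trpv4*, *Trpv2*, *Piezo1* and *Stk39*) and 3 genes (*Trpv4*, *Trpv2* and *Stk39*) were still called higher in eWAT. Then 1 gene (*Trpm7*) was called lower than in liver and 3 genes (*Trpm4*, *Wnk1* and *Oxsr1*) lower than in muscle. In liver against muscle, 4 genes were called lower under median-ratio scaling too. The split of all calls between higher and lower in eWAT moved from 7851 and 917 to 2713 and 2566 against liver, and from 5924 and 1009 to 2546 and 2276 against muscle.

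The order of the genes within a tissue differed too. In CON eWAT, *Oxsr1*, *Wnk1* and *Piezo1* led at 17.5, 13.1 and 11.7 FPKM. In CON muscle, *Oxsr1* and *Wnk1* led and *Trpm7* followed at 5.79 FPKM. In CON liver, *Trpm7* led and *Oxsr1* and *Wnk1* followed at 2.87 and 2.49 FPKM. *Trpv4* was 7th of 10 in CON eWAT, 8th in CON muscle and 9th in CON liver. In HSD eWAT, *Piezo1* had the highest mean of the 10, 17.5 ± 5.05 FPKM (SD, n = 3), with *Oxsr1* at 17.3 ± 3.19 FPKM, a gap well inside their spread.

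The 5 genes whose pattern over the 18 libraries was most like *Trpv4*, by Pearson's r of log2(FPKM + 0.5) among 13066 genes, were *Cacna1c* (r = 0.988), which encodes the pore of an L-type calcium channel, *Ptpdc1* (0.986), *Col4a4* (0.984), a chain of basement membrane collagen, *Syn2* (0.984) and *Vwa3a* (0.983). The 18 points fall into 3 tissues and share their libraries, so r here mostly follows the tissue means. Without the eWAT library with epididymal RNA, *Vwa3a* ranked 1 and *Cacna1c* 3, while *Ptpdc1*, *Syn2* and *Col4a4* ranked 11, 18 and 19. In the 6 eWAT libraries alone, r was 0.971 for *Cacna1c*, 0.972 for *Ptpdc1*, 0.766 for *Col4a4*, 0.902 for *Syn2* and 0.815 for *Vwa3a*, values that include the *Trpv4* difference the choice used. Among the other members, *Piezo1* (0.951), *Trpv2* (0.949) and *Stk39* (0.948) were nearest to *Trpv4* over 18 libraries, and *Oxsr1* (0.584) was farthest. Without the eWAT library with epididymal RNA, the order was *Piezo1* (0.961), *Trpc1* (0.955), *Trpv2* (0.950) and *Stk39* (0.936), and *Trpm4* (0.554) was farthest. Within eWAT, *Trpm7* was the nearest member at 0.853, *Trpv2* stood at 0.757 and *Trpm4* at 0.756, and *Lrrc8a* had an r of -0.313.

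The other genes of the pathway were followed through 6 lists that hold 79 genes, none of them a member. In the diet comparisons, 50 were tested in eWAT, 35 in muscle and 31 in liver, and 0 were called in any of them by limma. Of the 23 other TRP channels, 9 were tested in eWAT. *Trpv6*, an epithelial calcium channel, had the largest, 1.41 (limma adjusted p of 0.542), and it was set by 10.4 FPKM in HSD replicate 2 against 0.0335 to 0.0763 in the other eWAT libraries, so that the gene passed the filter only through that library. The largest differences of the WNK list and of the channel partners in eWAT, *Kcnj16* at 1.72 and *Tmem150c* at 2.17, had the same source library, with 40.5 and 52.5 FPKM there and at most 2.27 and 1.10 FPKM elsewhere. *Kcnj16* encodes a subunit of an inward rectifier potassium channel, and *Tmem150c* a membrane protein linked to mechanical currents. Without that library, *Kcnj16* stood at 0.17 and *Tmem150c* at 0.39.

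The volume-regulated anion channel joins LRRC8A with other LRRC8 subunits that set which osmolytes pass. Of its 4 other subunits, *Lrrc8d* had the largest diet difference in eWAT, with 4.62, 6.14 and 6.02 FPKM in CON and 3.21, 2.15 and 3.47 FPKM in HSD. Every HSD library was lower, as for 12.4% of all genes, and the difference was -0.84 (SE 0.20) with a limma adjusted p of 0.159. Without HSD replicate 2 it was -0.66, and the adjusted p was 0.0474. In CON mice, 3 of the 4 subunits were tested between tissues, and *Lrrc8b*, *Lrrc8c* and *Lrrc8d* were all called higher in eWAT than in liver (3.20, 2.93 and 2.61 on the log2 scale) and than in muscle (2.30, 1.28 and 2.67). With median-ratio scaling the differences from liver were 2.42, 1.71 and 1.40, and those from muscle 1.47, 0.36 and 1.82, of which that of *Lrrc8c* had a limma adjusted p of 0.116. *Lrrc8d* stood at 5.59 ± 0.844 FPKM in CON eWAT, 0.491 ± 0.0915 FPKM in liver and 0.457 ± 0.137 FPKM in muscle (SD, n = 3 each). *Lrrc8b* had CON means of 4.28 FPKM in eWAT, 0.017 FPKM in liver and 0.477 FPKM in muscle. *Lrrc8b* and *Lrrc8d* thus passed the filter only through eWAT. A call in the other direction was hardly possible for them, and their calls are not read further.

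Of the 16 other WNK kinases and regulators, 14 were tested in eWAT, 11 in muscle and 12 in liver. *Sgk1* encodes a kinase induced by salt hormones and osmotic stress that acts with WNK1 on sodium transport. It passed the adjusted p threshold in muscle, where 97 of 10834 genes did. It read 68.7, 61.4 and 65.9 FPKM in CON muscle and 42.7, 38.5 and 33.7 FPKM in HSD muscle. It fell by 0.77 (SE 0.13) on the log2 scale, with a limma adjusted p of 0.0334, short of the fold needed for a DEG. The p passed with the replicate block (0.0140) and missed the threshold in 5 of the 6 fits that left out a muscle library (0.0181 to 0.135). In eWAT, *Sgk1* read 17.6, 14.8 and 18.0 FPKM in CON and 31.2, 20.5 and 29.6 FPKM in HSD, a value outside the naming rule that was picked after it was seen. That difference was 0.66 (SE 0.18) with a limma adjusted p of 0.198, and 0.84 with an adjusted p of 0.0227 without the library with epididymal RNA. In liver, *Wnk4* had the largest difference of the list, 0.81 (SE 0.42, limma adjusted p of 0.764).

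Among the 12 partners and regulators of the channels, *Stom*, which encodes stomatin, a modulator of mechanically gated channels, passed the adjusted p threshold in muscle. It read 16.5, 17.3 and 16.7 FPKM in CON and 11.1, 11.5 and 11.0 FPKM in HSD muscle, and it fell by 0.57 (SE 0.11) on the log2 scale with a limma adjusted p of 0.0452. Its adjusted p with a muscle library left out was 0.0423 to 0.166, above the threshold in 5 of 6 fits, and 0.0297 with the replicate block. All 7 genes of this list that were tested in muscle had a negative difference, with a median of -0.22 beside -0.06 for all genes. In muscle, the HSD group lay below CON with no overlap for 15.6% of all genes and above it for 6.72%. The share of all genes with a negative difference is not given here, so the 7 signs are not read further. Of the 7 cotransporters phosphorylated by OXSR1 and STK39, 5, 4 and 5 were tested in eWAT, muscle and liver, and the largest differences were 0.19 for *Slc12a2* in eWAT, -0.32 for *Slc12a7* in muscle and -0.87 for *Slc12a7* in liver. The limma adjusted p was 0.311 or more for the cotransporters in muscle and 0.764 or more in liver. The 17 other mechanosensitive and osmosensitive channels had 9, 7 and 4 tested, with *Clcn3* (0.36) in eWAT, *Ano1* (-0.37) in muscle and *Tmem63b* (0.31) in liver as the largest. The eWAT value of *Clcn3*, a chloride-proton exchanger, came from HSD replicate 2 at 5.96 FPKM, and its ratio of means went from 1.40 to 1.06 without that library.

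**Figure D5:**
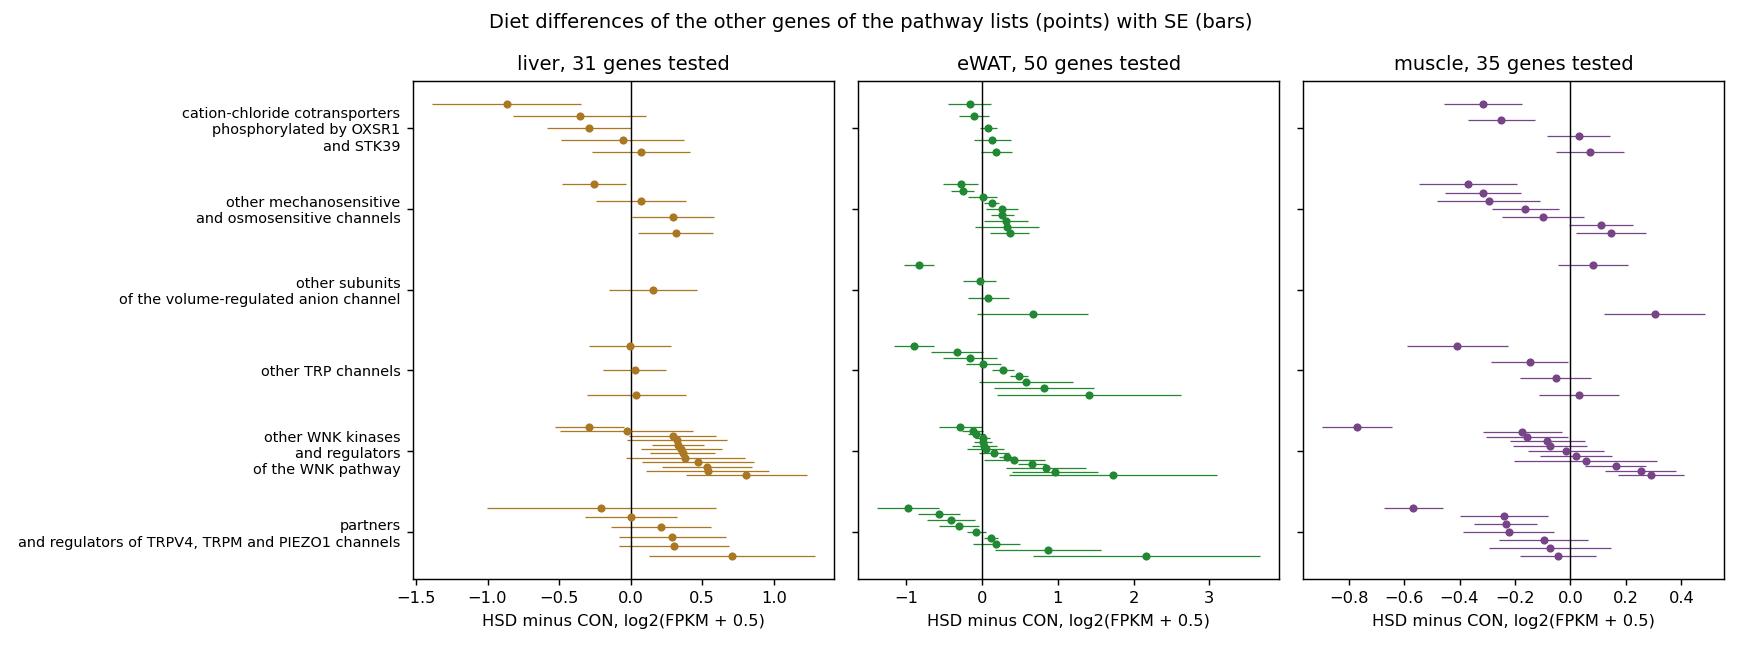
Difference between HSD and CON on the log2(FPKM + 0.5) scale (horizontal axes, with a range of its own for each tissue) for the tested genes of 6 pathway lists (rows) in liver, eWAT and muscle, each point a gene with its SE. The lowest muscle point of the WNK list is *Sgk1* at -0.77, and the rightmost eWAT point is *Tmem150c* at 2.17, a gene set by HSD replicate 2.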

How the data were processed

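RNA of liver, eWAT and muscle was sequenced by the authors from rRNA-depleted stranded libraries. Their methods give cutadapt (version 1.9.3) for trimming and hisat2 (version 2.0.4) for alignment to mm10. For FPKM the methods name cuffdiff with an Ensembl annotation, while the submitters' processing notes name HTSeq (0.9.1). Which tool made the deposited FPKM is not settled by the sources used here. The FPKM were used as deposited. Whole fragments were recovered from the FPKM with exon lengths of GENCODE M21: 18330 of 18789 genes above 0 with an exon length (97.56%) were whole in all 18 libraries, within 0.01 of a fragment. The recovered counts are not the authors' deposited values and were used for depth and for limma voom.

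Groups came from the sample labels. The test was limma (3.58.1, under R 4.3.3) with a variance trend, applied to deposited FPKM after adding 0.5 and taking log2. Genes whose average over the fitted libraries fell below 0.5 FPKM were left out, and p was adjusted by Benjamini and Hochberg over the rest. Each tissue was fitted alone for diet (6 libraries), and the 9 CON libraries together for tissue. Fold changes on this scale understate low genes. No source used here says for each library which mouse it came from, so p-values measure only the spread between these libraries. Tissues carry shared numbers in part, and that number was also tried as a random block.

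The 10 genes and all lists were chosen with earlier results of these data known. Named genes are the 10 members, the called genes of each pathway list (at most 3 per direction) or, where none was called, its gene with the largest difference (between tissues, only the anion channel subunits are given), the 5 genes most like *Trpv4*, and the top marker of a library that stands apart (*Sgk1* in eWAT lies outside the rule). Same-numbered CON and HSD libraries had correlated deviations in muscle (0.383, 0.177 and 0.184), not in liver (-0.473, 0.395 and -0.213) or eWAT (-0.197, 0.061 and 0.414). In simulated counts, 95.8% of genes changed 4-fold and 31.2% of genes changed 2-fold were called. They used the totals of the eWAT libraries and a shared mean per gene, with a fixed spread. No simulated library held RNA of another tissue, so these shares do not give the power of the real eWAT comparison. No pair of libraries was identical. Other computations used Python 3.11.15, numpy 2.4.6 and pandas 2.3.3.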

Additional observations from a re-analysis of the deposited data

Results flagged for a closer look

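*Sgk1* lay on opposite sides of CON in 2 tissues: every HSD library was higher than every CON library in eWAT (20.5 to 31.2 against 14.8 to 18.0 FPKM) and lower in muscle (33.7 to 42.7 against 61.4 to 68.7 FPKM). Of all genes, 16.2% were higher in eWAT and 15.6% lower in muscle with no overlap. The diet difference in muscle minus that in eWAT was -1.43 (SE 0.23) on the log2 scale over 12 libraries, with an unadjusted p of 6.18e-05 and a limma adjusted p of 0.0677 over 13152 genes, so it did not pass the threshold. At that threshold, 0 of the 13152 genes passed. This contrast was added after the values were seen.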

How the results depend on the processing

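The difference of *Trpv4* in eWAT ranged from 0.82 to 1.13 (log2) over 19 alternatives, that of *Trpv2* from 0.61 to 1.19, of *Trpm7* from 0.27 to 0.40 and of *Piezo1* from 0.32 to 0.76. *Trpm7* in muscle ranged from 0.35 to 0.49 and had an adjusted p of 0.0871 to 1. The count of DEGs was less stable. In liver it was 926 with arrayWeights, 41 with all 18 libraries in 1 fit, 35 with only the libraries that the study's table lists (it lacks CON replicate 2 and HSD replicate 3 of liver and HSD replicate 3 of eWAT, the lowest HSD library for *Trpv4*), and 0 to 1 with a library left out. In eWAT it was 220 with arrayWeights, 161 with all 18 libraries and 0 to 160 with a library left out, the 160 without HSD replicate 2. In muscle it was 7 with no filter, 5 with all 18 libraries, 72 with voom (added after the data were seen) and 10 to 61 with a library left out. With the replicate number as a block, muscle had 54 DEGs and liver and eWAT 0, and no member changed its call. For eWAT against liver, median-ratio scaling gave 5279 DEGs and quantile normalization 5150, against 8768. With arrayWeights, *Lrrc8a* (0.90, adjusted p of 6.57e-05), *Oxsr1* (0.57, 0.000392) and *Wnk1* (-0.28, 0.00634) passed in liver. The cause of these shifts was not tested.

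Values near 0 turned sign. In liver, *Oxsr1* was -0.27 without mitochondrial genes and -0.14 to 0.29 with a library left out, and *Trpm7* -0.29 to 0.23. In muscle, *Lrrc8a* was 0.0372 with median-ratio scaling, 0.13 with quantile normalization, 3e-04 with arrayWeights and 0.0297 with voom. *Wnk1* was 0.0222 with median-ratio scaling, and *Oxsr1* -0.009 with quantile normalization, -0.0464 without mitochondrial genes and -0.0927 with arrayWeights. With a muscle library left out, *Lrrc8a* ran from -0.25 to 0.14, *Wnk1* from -0.2233 to 0.0601, *Oxsr1* from -0.16 to 0.13 and *Trpv4* from -0.0832 to 0.3132. Between tissues, *Trpm7* was -1.12 (median-ratio) and -0.87 (quantile) for eWAT against liver, -0.24 and -0.11 for eWAT against muscle, and -0.17 for liver against muscle in HSD mice. *Lrrc8a* was -0.0676 for eWAT against liver with quantile normalization and -0.29 to 0.26 for liver against muscle with a library left out, and *Trpm4* was 0.0744 for eWAT against muscle in HSD mice.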
